A study of Mus musculus with 6 samples.

Results

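Macrophages and lymphocytes are the main immune cells of the testis interstitium, the tissue between the seminiferous tubules, and 34 genes that mark them were examined here in whole-testis RNA. The genes were chosen by symbol: 22 mark macrophages and their functions, 4 are carried by leukocytes in general, and 8 mark lymphocytes. All 34 were among the 23361 genes tabulated, and 31 of them passed the filter on low counts that left 16658 genes for testing. None of the 31 passed the test between the groups, Aif1 and Lyz2 came nearest to it, and the macrophage genes had a median log2 fold change of −0.01.

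The 6 mice were adults of the C57BL/6J strain, about 120 days old, and both alleles of Ret in each carried the substitution V805A. Ret is the receptor kinase through which glial cell line-derived neurotrophic factor (GDNF) signals. The substitution lets the small molecule 1NaPP1-HCl block the kinase. For 9 days, 3 control mice received daily vehicle (saline, cremophor and ethanol) and 3 inhibitor mice received 1NaPP1-HCl in that vehicle. After 5 days without injections, on day 14, testes were collected and polyadenylated RNA was sequenced. The controls carry the substitution too, and no group in the series received the inhibitor without it or was left uninjected, so effects of the compound outside Ret cannot be told apart from those of blocking Ret. The labels name no cells other than those of the testis, and nothing beyond the mouse number ties a control to an inhibitor mouse.

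Testicular macrophages live beside Leydig cells and around the peritubular layer. They depend on CSF1 acting on its receptor CSF1R. Those of the interstitium are known for the mannose receptor CD206, and those on the tubule surface for high MHC class II, the molecules that present peptides to CD4 T cells. The healthy testis holds few T cells and very few B cells, and the tubules are closed to all of them by the Sertoli cell barrier. In whole-organ RNA, fewer cells of a type and less RNA per cell cannot be told apart.

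Libraries held between 23144295 and 43127892 fragments assigned to genes, so 1 CPM (fragments relative to the library's total after normalisation) stood for 22.9 to 43.9 fragments. Ret was lower in every inhibitor mouse (2.17 ± 0.294 CPM in controls, 0.579 ± 0.0858 in inhibitor mice, SD, n = 3 each), with an edgeR adjusted p of 0.020. Inhibitor mouse 3 stood apart from inhibitor mice 1 and 2. The chi-square per degree of freedom between replicates was 12.08 and 13.08 for the pairs that include it and 4.23 to 6.05 for the other pairs, and 2405 genes were called without it against 26 with it. Results on the leukocyte genes that turn on this mouse are therefore given with and without it.

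The edgeR quasi-likelihood test called 26 genes at a Benjamini-Hochberg adjusted p of 0.05, which is 0.156% of the genes tested: 10 higher in inhibitor mice (0.0600%) and 16 lower (0.0960%). It called 0 of the 31 leukocyte genes. At an unadjusted p under 0.05, reached by 17.9% of all genes, 4 of the 31 were higher in inhibitor mice (Aif1, Lyz2, Cd163 and Cd4), or 12.9%, against 9.43% of all genes. None was lower, against 8.48% of all genes. In 3 of the 31, or 9.68%, every inhibitor mouse was above every control (Aif1, Lyz2 and Cd3d). The groups did not overlap in 22.9% of all genes, and 11.0% had that separation. In none was every inhibitor mouse below every control, against 11.9% of all genes. The shares of higher genes are thus near those of the whole transcriptome. DESeq2 gave an adjusted p to 15 of the 31 and none to the other 16, and it called 1 of the 15, Aif1. It called 4.48% of all genes to which it gave an adjusted p, with 3.08% higher. With the mouse number as a block, edgeR called 0.0300% of all genes and no leukocyte gene. Without inhibitor mouse 3, edgeR called 5 of the 31, or 16.1%, against 14.3% of all genes (8.71% higher, 5.54% lower). Those 5 were Aif1, Lyz2, Cd163, H2-Aa and H2-Eb1, and each was higher in the remaining inhibitor mice.

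**Figure D1:**
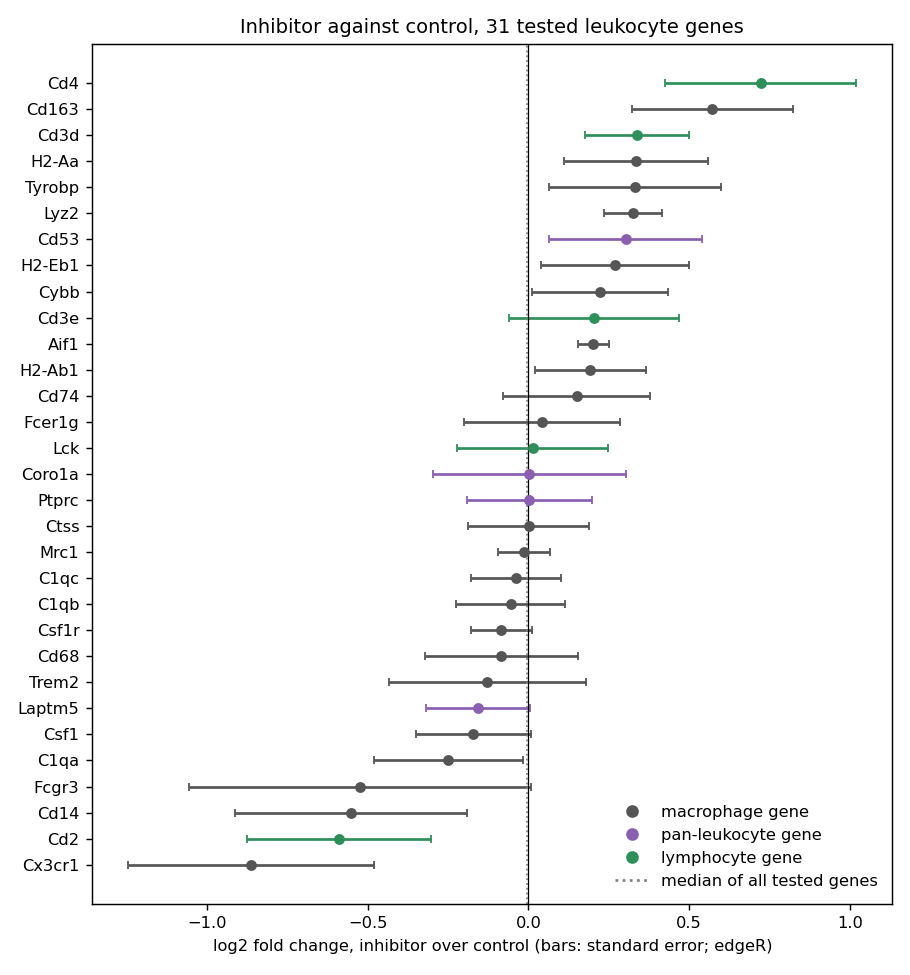
Log2 fold change of inhibitor over control mice for the 31 tested leukocyte genes, from edgeR, on the horizontal axis; points are estimates, bars are standard errors and colours give the gene group. Estimates ran from −0.86 for Cx3cr1 to 0.72 for Cd4, and 18 of the 31 were above 0.

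The members fell into a wide range of levels. On the deposited FPKM scale, which divides by transcript length and so allows comparison between genes, Aif1 averaged 500.5 over the 6 mice and Fcgr3 37.7. Lyz2 followed at 16.4, then Cd74 at 11.1, C1qb at 11.1, H2-Ab1 at 8.30, C1qc at 8.08 and Mrc1 at 7.57. The median of all genes tested was 6.27 FPKM. Csf1r, the receptor that macrophages need to survive, averaged 2.80 and the lysosomal macrophage marker Cd68 2.28. Ptprc, which encodes the pan-leukocyte phosphatase CD45, averaged 0.318. The lowest 3 were lymphocyte genes, Cd3g at 0.141, Cd79b at 0.0782 and Cd8a at 0.0346. From Fcgr3 down, neighbours in this order had ranges over the 6 mice that overlapped. The range of Aif1 (462.1 to 570.0), in contrast, lay wholly above that of Fcgr3 (13.2 to 61.1).

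**Figure D2:**
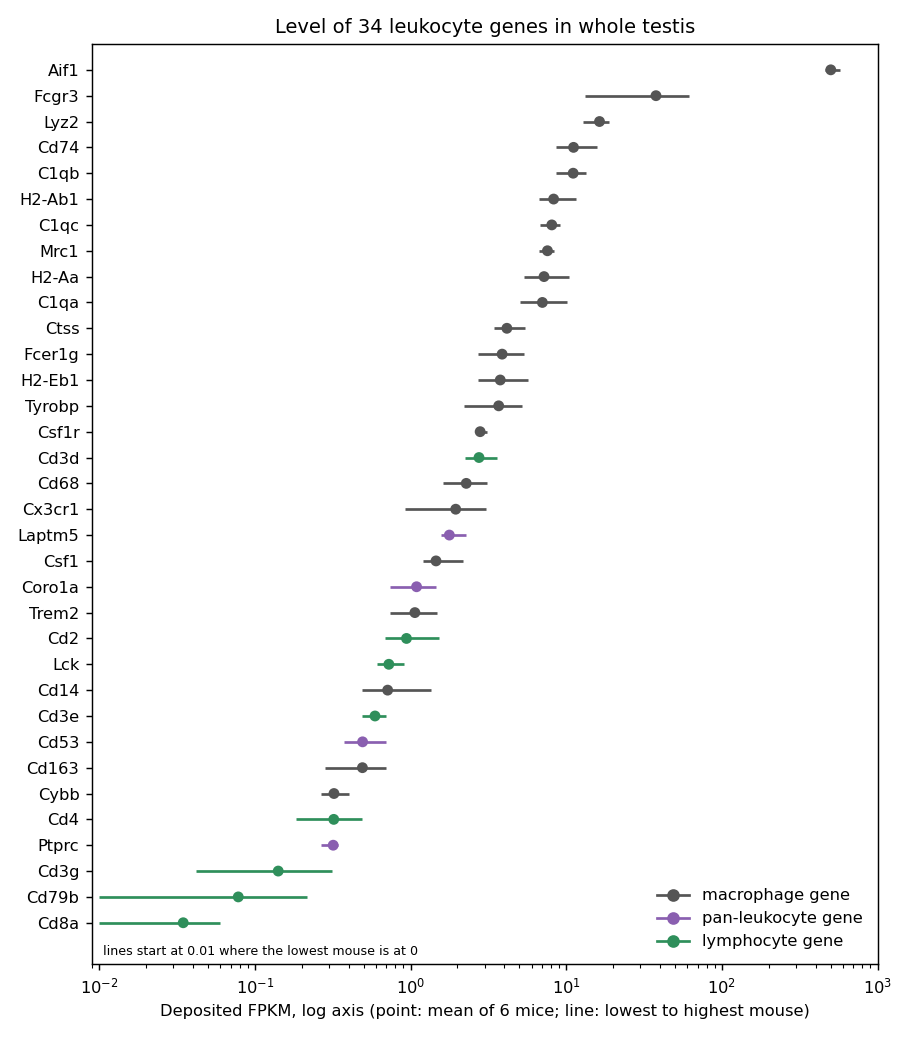
Level of each of the 34 leukocyte genes as deposited FPKM on a log axis; points are means of 6 mice, lines run from the lowest to the highest mouse, and colours give the gene group. Aif1 stands apart at the top and the lymphocyte genes Cd3g, Cd79b and Cd8a lie at the bottom.

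Aif1 was far above the other macrophage genes per length. Fcgr3 had the next highest mean, but its range of 13.2 to 61.1 FPKM overlapped that of Lyz2 (12.8 to 18.7). The FPKM of Aif1 was 220-fold that of Cd68, with a range of 148 to 289 over the mice. FCGR3 is an activating receptor for immunoglobulin G that needs the chain encoded by Fcer1g to reach the cell surface, and Fcgr3 was 9.74-fold Fcer1g (3.58 to 17.8). In contrast, Tyrobp, which encodes another signalling adaptor of the same kind, was 0.951-fold Fcer1g (0.639 to 1.38), and C1qb was 1.58-fold C1qa (1.32 to 1.75).

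Sequence upstream of a start site is shown for 4 members whose values move in 2 different patterns below, a pair of MHC class II genes and a pair of C1q genes. Each run is the 150 bases upstream of a RefSeq start site on GRCm38.p6, printed 5′ to 3′ on the gene's own strand. Capitals mark ATTGG or its complement CCAAT, the core of the Y box of class II promoters, and GAGGAA or its complement TTCCTC, a core bound by the myeloid factor PU.1. H2-Aa lies on the minus strand (window chr17:34287824-34287973), H2-Eb1 on the plus strand (chr17:34305717-34305866), and C1qb (chr4:136886201-136886350) and C1qc (chr4:136892915-136893064) on the minus strand.
H2-Aa: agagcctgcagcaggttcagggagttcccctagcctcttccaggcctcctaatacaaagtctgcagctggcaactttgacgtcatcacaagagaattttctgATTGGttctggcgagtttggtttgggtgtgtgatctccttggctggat
H2-Eb1: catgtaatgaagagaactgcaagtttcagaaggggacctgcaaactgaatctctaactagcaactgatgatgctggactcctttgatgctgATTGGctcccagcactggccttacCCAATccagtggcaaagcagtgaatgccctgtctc
C1qb: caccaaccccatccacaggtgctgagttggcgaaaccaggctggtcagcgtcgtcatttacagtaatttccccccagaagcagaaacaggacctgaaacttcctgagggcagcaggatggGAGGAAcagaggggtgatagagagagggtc
C1qc: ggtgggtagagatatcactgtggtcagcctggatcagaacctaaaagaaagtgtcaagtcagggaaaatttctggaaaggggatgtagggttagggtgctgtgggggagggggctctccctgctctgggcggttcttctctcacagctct

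Both class II windows hold ATTGG, and H2-Eb1 holds CCAAT as well. The C1qb window holds GAGGAA and the C1qc window holds neither core. In the GENCODE annotation the C1qc window lies within the span of the gene itself (chr4:136889804-136893065). Its lack of a core therefore describes the RefSeq start only. Searched on both strands, ATTGG was in 24.5% of 32851 windows of this length over all genes. It was in 8 of the 29 windows of the 25 member genes with a RefSeq entry. GAGGAA was in 14.5% of all windows and in 11 of the 29 member windows, which belong to 10 of the 25 genes. A match describes these letters and is not evidence of a bound site.

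Of the lineage and receptor genes, Csf1r and Mrc1 had estimates near 0 with standard errors under 0.1. Csf1r stood at 10.2, 10.5 and 11.7 CPM in controls and 10.0, 9.93 and 10.5 in inhibitor mice. The groups overlapped, with a log2 fold change of −0.08 (SE 0.09) and an edgeR adjusted p of 0.681. Its ligand gene Csf1 was at 4.53, 7.31 and 4.73 CPM in controls and 4.87, 5.03 and 5.00 in inhibitor mice. Control mouse 2 alone was high, and the log2 fold change of −0.17 (SE 0.18) became 0.10 without it.

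Mrc1, which encodes the mannose receptor CD206 of resident macrophages, was at 38.1, 42.1 and 38.8 CPM in controls and 39.6, 34.7 and 43.6 in inhibitor mice. The groups overlapped fully, and the log2 fold change was −0.01 (SE 0.08, edgeR adjusted p 0.951). The standard error of Mrc1 is among the smallest of the members. Cd163, the haemoglobin scavenger receptor, was at 1.20, 2.19 and 1.63 CPM in controls and 2.85, 3.02 and 1.82 in inhibitor mice. Inhibitor mice 1 and 2 were above every control and inhibitor mouse 3 was below control mouse 2. The estimate for Cd163 was 0.57 (SE 0.25, unadjusted p 0.0419, edgeR adjusted p 0.257). Without inhibitor mouse 3 it was 0.77, with an edgeR adjusted p of 0.0388. Cd163 and Mrc1, both receptors of tissue-resident macrophages, thus had estimates of different size, and the difference between them was not tested.

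Cx3cr1, the receptor for the chemokine fractalkine, had the lowest estimate of the members. It was at 10.3, 11.1 and 5.75 CPM in controls and 3.34, 7.44 and 4.41 in inhibitor mice. Inhibitor mouse 2 lay above control mouse 3, so the groups overlapped. The log2 fold change was −0.86 with a standard error of 0.38 (unadjusted p 0.0687, edgeR adjusted p 0.318). In the GENCODE annotation the longest span of Cx3cr1 (chr9:119901616-120069879) overlaps other genes, and whether the counting separated their fragments is not given in the sources used here. Cx3cl1, which encodes fractalkine, was at 4.13, 5.31 and 3.91 CPM in controls and 3.34, 2.84 and 3.15 in inhibitor mice, each inhibitor mouse below each control, at an edgeR adjusted p of 0.133 and a log2 fold change of −0.52 (SE 0.16).

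Cd14, the co-receptor for bacterial lipopolysaccharide, was at 0.641, 1.80 and 0.850 CPM in controls and 0.765, 0.787 and 0.805 in inhibitor mice. Only control mouse 2 was high, and the log2 fold change of −0.55 (SE 0.36) became 0.07 without it. Cd68 ranged from 1.33 to 2.57 CPM and Trem2, a lipid receptor of macrophages and microglia, from 0.665 to 1.36, with the groups overlapping in both. Without control mouse 2 the estimate of Cd68 was 0.23 and that of Trem2 was 0.15, against −0.09 and −0.13 with all mice. Control mouse 2 had the highest value in 10 of the 31 tested members and in 18.3% of all genes. Inhibitor mouse 1 had the highest value in 9 of the 31 and in 16.2% of all genes. The lowest value was in control mouse 1 for 10 of the 31 and for 14% of all genes.

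Aif1 encodes IBA1, an actin-bundling protein used to stain macrophages, and in the testis it is also abundant in germ cells. It lies on chromosome 17 (chr17:35170991-35176068, GRCm38). Its level was 319, 319 and 321 CPM in controls and 354, 391 and 357 in inhibitor mice. The controls were within 2 CPM of each other and every inhibitor mouse was above them. The fold was 1.15, the log2 fold change 0.20 (SE 0.05) and the edgeR adjusted p 0.093, so Aif1 did not pass. DESeq2 gave Aif1 an adjusted p of 0.0227 and edgeR without inhibitor mouse 3 gave 0.00465. Among spermatid markers, 7 of 8 had an estimate above 0, with a median log2 fold change of 0.15 and a summed level of 14800 to 15600 CPM in controls and 16000 to 17800 in inhibitor mice. Of these, Akap4 of the sperm tail had a log2 fold change of 0.17 (edgeR adjusted p 0.093) and Prm2, a protamine of sperm chromatin, 0.16 (edgeR adjusted p 0.104). None of the 8 passed. At an unadjusted p under 0.05, 4 of the 8 were higher, a larger share than the 9.43% of all genes. In 3 of the 8 every inhibitor mouse was above every control, against 11.0% of all genes. The part of the spermatids in the value of Aif1 was not tested. After removal of a length and GC trend, Aif1 had a log2 fold change of 0.08 and an edgeR adjusted p of 0.488.

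**Figure D3:**
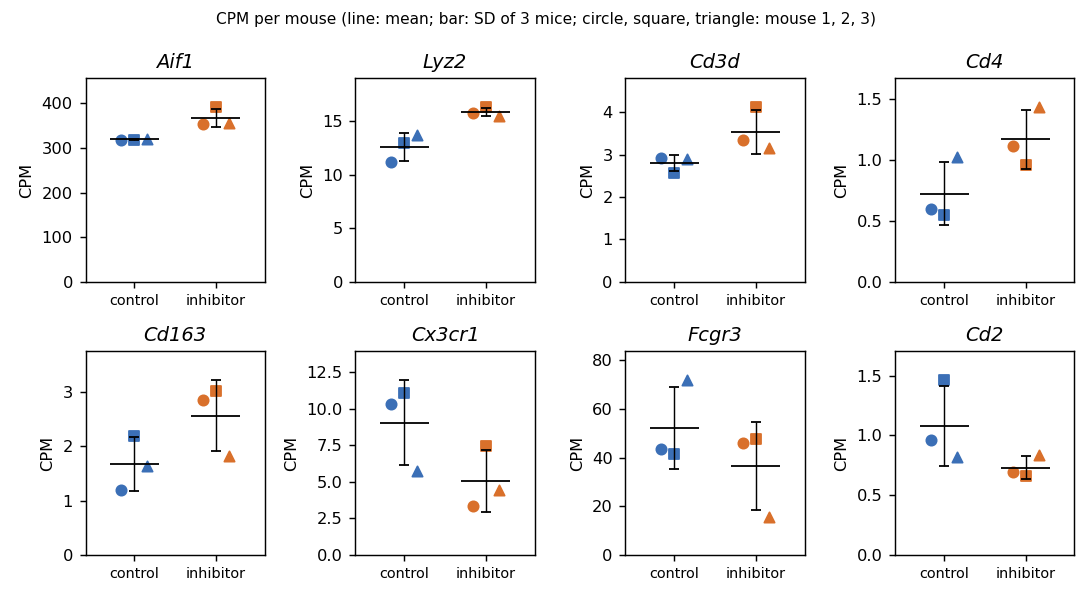
CPM in each mouse for 8 leukocyte genes, controls in blue and inhibitor mice in orange; horizontal lines are means, bars are SDs of 3 mice, and circle, square and triangle are mice 1, 2 and 3. Aif1, Lyz2 and Cd3d show every inhibitor mouse above every control, and Fcgr3 in inhibitor mouse 3 lies below all others.

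Lyz2, the lysozyme of macrophages and neutrophils, was at 11.2, 13.0 and 13.7 CPM in controls and 15.8, 16.3 and 15.5 in inhibitor mice. All 3 inhibitor mice were above all controls. The fold was 1.25, with a log2 fold change of 0.33 (SE 0.09), an unadjusted p of 0.00391 and an edgeR adjusted p of 0.117. Without inhibitor mouse 3 the log2 fold change of Lyz2 was 0.34 and the edgeR adjusted p 0.0324. Leaving out that mouse thus changed the call and not the size. The log2 fold change was 0.21 with the length and GC trend removed (edgeR adjusted p 0.319) and 0.25 without control mouse 1. Measured against Csf1r within each mouse, the Lyz2 FPKM was 4.72, 5.33 and 5.04-fold in controls and 6.74, 7.05 and 6.33-fold in inhibitor mice. The near-identical copy Lyz1 lies beside Lyz2, and reads shared by the pair may be divided between them. The neutrophil markers S100a8, S100a9, Ngp, Camp, Ltf, Elane and Retnlg were at 0.342 CPM or less in every mouse. Not all of the neutrophil list was that low: its 8 tabulated genes summed to 3.23 to 5.28 CPM per mouse. The 1 gene of the list that was tested had a log2 fold change of 0.15 (edgeR adjusted p 0.711).

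Cybb, which encodes the catalytic subunit of the phagocyte oxidase, ranged from 1.22 to 1.85 CPM with the groups overlapping. Its log2 fold change was 0.22 (SE 0.21). Of 5 other oxidase subunits and regulators, none passed. Rac2, the small GTPase of the complex, had the smallest p of these, with 2.15 ± 0.276 CPM in controls and 2.68 ± 0.0826 in inhibitor mice (edgeR adjusted p 0.361).

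The C1q genes encode the chains of the molecule that starts the classical complement pathway, and tissue macrophages are a main source of it. C1qa was at 4.53, 9.14 and 6.73 CPM in controls and 6.01, 6.43 and 5.00 in inhibitor mice. C1qb was at 7.57, 11.8 and 10.2 in controls and 10.3, 10.6 and 7.84 in inhibitor mice. C1qc was at 5.85, 7.93 and 7.48 in controls and 7.27, 7.57 and 6.02 in inhibitor mice. The 3 genes shared their order over the controls: control mouse 1 was lowest and control mouse 2 highest in each. Inhibitor mouse 2 was the highest and inhibitor mouse 3 the lowest of the inhibitor mice in each. Between the groups the log2 fold changes were −0.25, −0.06 and −0.04, with edgeR adjusted p-values of 0.616, 0.902 and 0.918. All 3 estimates were above 0 without control mouse 2, at 0.04, 0.11 and 0.06. Of 10 other early complement genes tested, none passed, and C1ra, the protease that C1q activates, had the smallest p (log2 fold change −0.20, edgeR adjusted p 0.436).

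The antigen presentation genes had another pattern over the mice. H2-Aa and H2-Ab1 encode the chains of I-A and H2-Eb1 a chain of I-E, Cd74 the chain that guides class II molecules to the endosome, and Ctss the protease that trims CD74 there. H2-Aa was at 4.73, 5.90 and 6.22 CPM in controls and 9.28, 7.31 and 4.76 in inhibitor mice. H2-Ab1 was at 7.89, 7.95 and 7.65 in controls and 11.7, 8.36 and 6.75 in inhibitor mice. H2-Eb1 was at 5.13, 4.83 and 5.41 in controls and 8.48, 5.91 and 4.06 in inhibitor mice. In these 3 genes inhibitor mice 1 and 2 were above every control, while inhibitor mouse 3 was below every control in H2-Ab1 and H2-Eb1 and second lowest of the 6 in H2-Aa. The controls differed little, with an SD of 0.158 CPM for H2-Ab1 against 2.53 in inhibitor mice.

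Cd74 was at 9.41, 13.3 and 11.5 CPM in controls and 17.0, 11.6 and 9.62 in inhibitor mice. Inhibitor mouse 1 alone was above all controls. The same mouse was highest for Ctss, at 6.43 CPM, where the other 5 mice were between 4.02 and 5.67. The log2 fold changes were 0.33 for H2-Aa, 0.19 for H2-Ab1, 0.27 for H2-Eb1, 0.15 for Cd74 and 0.00 for Ctss, and the smallest edgeR adjusted p of these was 0.477. Without inhibitor mouse 3, edgeR called H2-Aa (log2 fold change 0.56, adjusted p 0.0206) and H2-Eb1 (0.50, adjusted p 0.0444). Without inhibitor mouse 1 the estimates of H2-Ab1, H2-Eb1 and Cd74 were −0.06, −0.05 and −0.12. The direction of those 3 therefore rested on inhibitor mouse 1, whereas H2-Aa stayed above 0 with any mouse left out (0.09 to 0.56).

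Other genes of class II presentation mostly had estimates below 0. None of 7 tested passed, 0 reached an unadjusted p under 0.05, 5 of the 7 had an estimate below 0 and their median log2 fold change was −0.11. H2-DMa, which loads peptides onto class II molecules, had an estimate of 0.21 (edgeR adjusted p 0.425), and Rfxank, a subunit of the factor that binds class II promoters, −0.21 (edgeR adjusted p 0.327). Of 10 class I genes tested, none passed and their median was −0.00.

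**Figure D4:**
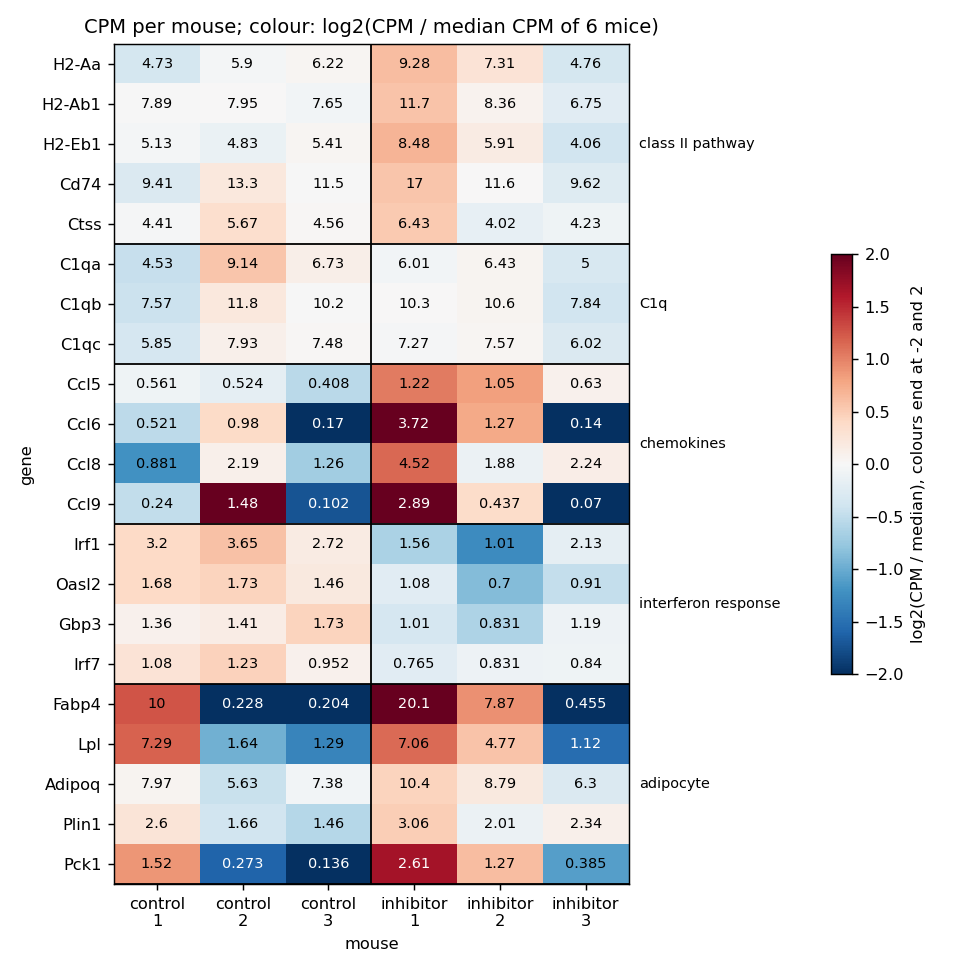
CPM of selected genes in each mouse, printed in the cells; colour is log2 of the CPM over the median of the 6 mice, and colours end at −2 and 2. Class II genes are high in inhibitor mouse 1, C1q genes are low in control mouse 1 and inhibitor mouse 3, and the adipocyte genes Fabp4, Lpl and Pck1 are high in control mouse 1 and inhibitor mice 1 and 2.

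Markers of fat cells differed between single mice in a further way, and a list of 12 of them was added after the values had been seen. Fabp4, a fatty acid carrier, was at 10.0, 0.228 and 0.204 CPM in controls and 20.1, 7.87 and 0.455 in inhibitor mice. Cfd and Car3 were at 0 in control mice 2 and 3 and inhibitor mouse 3, and between 4.77 and 10.9 CPM in the other 3 mice. Over the list the summed level was 307 to 342 CPM in controls and 318 to 356 in inhibitor mice, most of it from Lipe, which was between 276 and 309 CPM in every mouse. Of the 11 tested genes of the list, 10 had an estimate above 0 and none passed, with a median log2 fold change of 0.87. Among inhibitor mice, Fabp4, H2-Aa, H2-Ab1, H2-Eb1 and Cd74 were highest in mouse 1 and lowest in mouse 3. Ctss and the summed level of the list were lowest in mouse 2. In control mouse 1, with Fabp4 at 10.0 CPM, H2-Aa was the lowest of the 6. H2-Ab1 and H2-Eb1 in that mouse were between the other controls. The part of fat tissue in the class II values was not tested.

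The Fc receptor gene Fcgr3 (chr1:171051174-171064935, GRCm38) was at 43.5, 41.3 and 71.7 CPM in controls and 46.0, 47.7 and 15.5 in inhibitor mice. In 4 mice it lay between 41.3 and 47.7, with control mouse 3 above and inhibitor mouse 3 below these. The log2 fold change was −0.52 with a standard error of 0.53 (edgeR adjusted p 0.669), the largest standard error of the 31 members. Without inhibitor mouse 3 the estimate was −0.15. Its neighbour Fcgr2b, the inhibitory receptor, was highest in control mouse 3 and lowest in inhibitor mouse 3 too, at 9.66 and 3.25 CPM. Rnase10, a gene of the epididymal list, was at 0.0700 CPM in inhibitor mouse 3 and between 3.92 and 5.42 in the other 5. The remaining genes of that list other than Ros1 were at or near 0. The part of epididymal tissue in the Fcgr3 values was not tested. The adaptors did not follow Fcgr3: Tyrobp was between 0.816 and 1.95 CPM and Fcer1g between 1.27 and 2.50, and inhibitor mouse 1 was highest in both. Of 9 other genes of Fc receptor signalling tested, none passed and 7 had an estimate below 0, with Plcg2 nearest (log2 fold change −0.19, edgeR adjusted p 0.326).

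None of the 4 genes shared by all leukocytes passed between the groups. Ptprc was at 1.56, 1.57 and 1.77 CPM in controls and 1.77, 1.36 and 1.75 in inhibitor mice. The groups overlapped, with a log2 fold change of 0.00 (SE 0.19) and an edgeR adjusted p of 0.996. Laptm5, a lysosomal membrane protein of blood cells, was between 3.48 and 5.08 CPM. Coro1a, which binds actin in leukocytes, was between 1.05 and 2.07, and the tetraspanin gene Cd53 between 0.986 and 1.84. The log2 fold changes of these 3 were −0.16 (SE 0.16), 0.00 (SE 0.30) and 0.30 (SE 0.24). The smallest edgeR adjusted p of the group was 0.539, for Cd53.

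The lymphocyte genes were mostly low, and Cd3d was the highest of them. Of the 3 untested, Cd3g had 1 to 6 fragments per library, Cd8a 0 to 5 and Cd79b, a chain of the B cell receptor, 0 to 5. A count of 0 allows a level of up to 0.0684 to 0.131 CPM (3 fragments, counting error only). Without a count filter, edgeR gave log2 fold changes with standard errors of 0.81 for Cd3g, 0.80 for Cd8a and 1.03 for Cd79b. Only a large difference in these genes could therefore be detected at this depth. Cd3e, a chain of the CD3 complex of T cells, was at 0.641, 0.797 and 0.612 CPM in controls and 0.730, 0.875 and 0.805 in inhibitor mice. These values rest on 16 to 35 fragments each, the groups overlapped, and the log2 fold change was 0.20 (SE 0.26).

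Cd3d, another chain of the complex, was at 2.92, 2.57 and 2.89 CPM in controls and 3.34, 4.11 and 3.15 in inhibitor mice. Every inhibitor mouse was above every control, at a fold of 1.26 and a log2 fold change of 0.34 (SE 0.16, unadjusted p 0.0579, edgeR adjusted p 0.297). Per length, Cd3d was 4.66-fold Cd3e (3.53 to 5.17 over the mice) and 19.5-fold Cd3g (11.4 to 65.5), although the chains assemble in 1 complex.

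Cd4, the co-receptor of helper T cells that some macrophages also carry, was at 0.601, 0.547 and 1.02 CPM in controls and 1.11, 0.962 and 1.43 in inhibitor mice. Control mouse 3 lay above inhibitor mouse 2, so the groups overlapped. Its log2 fold change of 0.72 (SE 0.30) was the highest of the members, with an unadjusted p of 0.0315 and an edgeR adjusted p of 0.231. Cd2, an adhesion molecule of T cells, went the other way, at 0.961, 1.46 and 0.816 CPM in controls and 0.695, 0.656 and 0.840 in inhibitor mice. Inhibitor mouse 3 lay above control mouse 3, and the log2 fold change was −0.59 (SE 0.29, edgeR adjusted p 0.304). Control mouse 2 was the highest, and without it the estimate was −0.27. Lck, the kinase that starts T cell receptor signalling, was between 1.16 and 1.72 CPM, with a log2 fold change of 0.01. The 5 tested lymphocyte genes had a median of 0.20, against −0.00 for all genes tested.

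Of 7 other genes of the T cell receptor pathway that were tested, none passed. Lcp2, an adaptor also found in myeloid cells, was higher in every inhibitor mouse (2.76 ± 0.422 against 3.88 ± 0.407 CPM, SD, n = 3 each, edgeR adjusted p 0.159). Tcf7, a transcription factor, was lower in every one (8.09 ± 0.464 against 6.70 ± 0.342 CPM, edgeR adjusted p 0.211). Of the B cell list, Cd79a and Cd22 were at 0.160 CPM or less in every mouse, while Pax5 was between 3.81 and 5.35. The 6 tabulated genes of that list summed to 5.28 to 6.77 CPM, and none of the 3 tested passed (smallest edgeR adjusted p 0.652). All 8 markers of natural killer and cytotoxic cells were at 0.219 CPM or less in every mouse. The mast cell markers other than Hdc were at 0.262 CPM or less.

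Signalling molecules that attract or instruct these cells were examined from lists of the same kind. Of 10 tested chemokines and cytokines none passed, and at an unadjusted p under 0.05 there was 1 higher (Ccl5) and 1 lower (Cx3cl1). Ccl5, a T cell and macrophage chemokine, was at 0.561, 0.524 and 0.408 CPM in controls and 1.22, 1.05 and 0.630 in inhibitor mice, an estimate of 0.95 on the log2 scale (SE 0.32, edgeR adjusted p 0.156). Of 9 tested interferon response genes, none passed, 8 had an estimate below 0, 3 were lower at an unadjusted p under 0.05, and 4 were lower in every inhibitor mouse than in every control. Over all genes these shares were 8.48% and 11.9%. The median of these 9 was −0.23. Irf1, a factor induced by interferon, was at 3.20, 3.65 and 2.72 CPM in controls and 1.56, 1.01 and 2.13 in inhibitor mice, a log2 fold change of −1.01 (SE 0.24) with an edgeR adjusted p of 0.093. Oasl2, an antiviral gene, had a log2 fold change of −0.85 (edgeR adjusted p 0.106).

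Other macrophage markers gave the same count as the members, with 0 of 19 passing and a median of −0.02. Clec10a, a lectin of alternatively activated macrophages, was nearest, with a log2 fold change of 0.63 and an edgeR adjusted p of 0.225. Of 11 tested genes of the CSF1 axis and of myeloid transcription, none passed and 9 had an estimate below 0. Among the neighbours of these cells, no gene passed in the lists for Leydig cells (0 of 8), endothelium (0 of 9), peritubular myoid cells (0 of 7), Sertoli cells (0 of 10) or blood (0 of 3). Undifferentiated spermatogonia, the germ cells that carry Ret, were the exception: 3 of 8 tested markers fell (Ret, Zbtb16 and Lin28a). In the lists without a passing gene, estimates below 0 numbered 6 of 8 for Leydig cells, 7 of 9 for endothelium and 6 of 7 for myoid cells. They numbered 8 of 10 for Sertoli cells and 1 of 3 for blood, against 8501 of 16658 genes tested. Each of these lists except blood held 1 gene lower at an unadjusted p under 0.05. The smallest edgeR adjusted p was 0.117 in the Sertoli list and 0.123 in the myoid list.

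**Figure D5:**
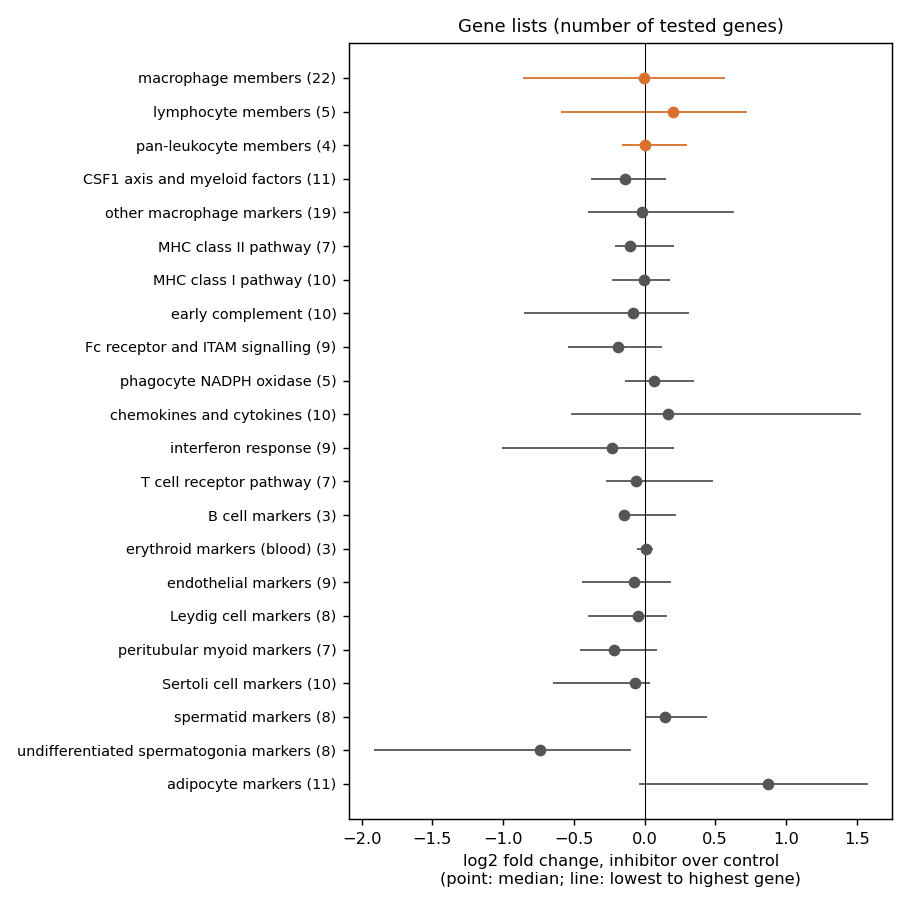
Median log2 fold change of inhibitor over control for the leukocyte gene groups (orange) and the other gene lists (grey), with lines from the lowest to the highest gene and the number of tested genes in brackets; the adipocyte list was added after the values were seen. The macrophage and pan-leukocyte medians lie at −0.01 and 0.00, and the lowest median is that of the undifferentiated spermatogonia.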

How the data were processed

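Whole-testis RNA of 3 control and 3 inhibitor mice was sequenced, per the labels' protocols, as directional polyA libraries made from 500 ng of total RNA (reads of 81 nt, single-end). Build mm10 and the tools TopHat2 2.0.13, Cuffdiff 2.2.1 and cutadapt 1.8 are named, per the submitters' processing notes. What each tool did, which gene annotation was used and whether counting used strand is not given in the sources used here, and overlapping genes may share fragments.

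The deposited fragment values are expected counts, not scaled to library size: 98.8% of 140166 values were whole within 1e-06, and all values of the 34 members were. They were rounded. FPKM as deposited by the authors was used for levels between genes, for the 12 ratios between members and, on the log2 scale with pseudocounts of 1 and 0.1, in alternatives. The labels name separate mice, and each is 1 library.

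The groups were compared with edgeR 4.0.16 under R 4.3.3 (filterByExpr, TMM normalisation, robust quasi-likelihood F-test, two-sided, Benjamini-Hochberg at 0.05 over all 16658 genes, no covariate). CPM used the normalised library sizes. Fold changes are inhibitor over control. Alternatives were RLE size factors, library totals, DESeq2 1.42.0, limma 3.58.1 (voom, and log2 FPKM), other filters, removal of the 50 most abundant genes, a loess trend on length and GC content (span 0.5), the mouse number as a block, and each mouse left out. Positions, lengths and overlaps came from GENCODE M21 on GRCm38, the same assembly as mm10, and promoters from RefSeq on GRCm38.p6. The edgeR procedure was tested on simulated data.

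The members and the 22 companion lists were chosen with earlier results of these data known. Every member is named. Of companion lists, genes past the threshold are named, or else 2 with the smallest p; other genes named, such as Fcgr2b, Rnase10, H2-DMa and markers at or near 0, were chosen after their values were seen. Of the genes the rule names, 1 is not reported here.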

Additional observations from a re-analysis of the deposited data

How the results depend on the processing

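The count of genes called, 26 of 16658 in edgeR, became 528 with DESeq2, 14 with limma-voom, 0 with log2(FPKM + 1), 1 with log2(FPKM + 0.1), 115 without a count filter and 10 with at least 50 counts in 3 libraries. With each mouse left out it ran from 0 to 2405, the highest without inhibitor mouse 3. Library totals alone gave 4 genes higher and 23 lower, against 10 and 16. The count of leukocyte genes called was 0, 1 with DESeq2, and 0 to 5 with a mouse left out; it was 0 under the other alternatives. The 50-count filter left 10 of the 31 tested members without a value. Of 517 estimates for single members, 51 had the opposite sign, all of them uncalled, and 13 members had none; the cause was not tested. With library totals Ctss was at −0.030, Ptprc −0.028, Coro1a −0.029 and Lck −0.018. With limma-voom Ctss was at −0.033, Fcer1g −0.003 and Coro1a −0.027. With log2(FPKM + 1) Ctss was at −0.010 and Ptprc −0.002, and with log2(FPKM + 0.1) Ctss was at −0.016, Fcer1g −0.003 and Ptprc −0.009. With the length and GC trend removed Csf1r was at 0.018, Ctss −0.138, Fcer1g −0.104 and Ptprc −0.016.

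With a mouse left out, the lowest and highest log2 fold changes were −0.289 and 0.104 for Csf1, −0.277 and 0.226 for Cd68, −0.095 and 0.066 for Mrc1, −0.789 and 0.068 for Cd14, and −0.441 and 0.147 for Trem2. They were −0.459 and 0.041 for C1qa, −0.204 and 0.105 for C1qb, −0.153 and 0.057 for C1qc, −0.119 and 0.320 for Cd74, −0.057 and 0.365 for H2-Ab1 and −0.046 and 0.502 for H2-Eb1. For Ctss they were −0.248 and 0.136, for Fcer1g −0.253 and 0.234, for Ptprc −0.062 and 0.109, for Laptm5 −0.264 and 0.024, for Coro1a −0.247 and 0.323, and for Lck −0.147 and 0.179. The median of the macrophage genes ran from −0.075 to 0.162.

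The replicate block, with the mouse number as a term, called 5 genes and 0 leukocyte genes, with Ctss at −0.017 and Ptprc at −0.015. Mice of the same number deviated together with correlations of 0.062, −0.116 and −0.020. Between mice of different number the correlations ran from −0.159 to 0.173. Values this close cannot decide whether the numbers pair the mice. Depth limits the members near 1 CPM (22.9 to 43.9 fragments per library).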
